A study of Mus musculus with 19 samples.

Results

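Irs2 and 9 further genes of insulin and insulin-like growth factor (IGF) signalling were examined in the cortex of APP23 mice on a high fat diet. They are the ligands Igf1 and Igf2, the IGF binding protein Igfbp2, the receptors Insr and Igf1r, the receptor substrates Irs1 and Irs2, the PI3K subunit gene Pik3r1, the kinase gene Akt2 and the transcription factor Foxo1. The genes were chosen by symbol, with earlier results of these data known. All 10 were among the 14996 genes of the table, with no library at 0 for any of them. APP23 mice express human APP751 with the Swedish mutation of familial Alzheimer's disease on a C57Bl6 background. All mice were hemizygous for this transgene, those on the normal diet included, and there was no group without it. Feeding began at a mean age of 11.7 months and lasted 3 months, on normal diet (ND) or on high fat diet (HFD), in which 40% of calories came from milk fat and corn oil. The deposited libraries covered the cortex of 10 mice on ND, 6 of them female, and of 9 on HFD, 5 of them female. There was 1 mRNA library per mouse, and mice are named here by the identifiers in their labels. A figure legend of the study gives 5 HFD mice per sex for RNA-seq, while the deposit holds 4 HFD males.

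Insulin and the IGFs bind receptor tyrosine kinases, which phosphorylate the substrates IRS1 and IRS2. These dock phosphoinositide 3-kinase (PI3K), whose lipid product activates AKT, and AKT in turn holds FoxO transcription factors out of the nucleus and feeds into TOR signalling. In liver, Irs2 is a well known transcriptional target of FoxO1 and of the cAMP response factor CREB, so its mRNA is itself regulated by the pathway and by fasting. In brain, insulin and IGF signalling is known for roles in neuronal survival, synaptic function and the central control of metabolism.

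Levels are given as deposited in RPM (reads of a gene scaled to a common library total), and differences as log2 fold changes from the counts by the quasi-likelihood test of edgeR. A gene was called when its unadjusted p was under 0.05, the cut the study used, and the Benjamini-Hochberg adjusted p over all genes tested stands beside it. Library totals ran from 11727151 to 17178044 reads in females and from 9308206 to 10844280 in males, so that depth and sex cannot be told apart. Counts of the 10 genes ran from 133 to 3348 reads a library. Of the lists of markers checked, glutamatergic neuron genes were high in every library. Other lists held calls for diet in both sexes together, where 5.44% of all genes tested were called higher and 6.99% lower. Higher on HFD were 4 of 4 erythrocyte genes tested, 7 of 8 of microglia, 3 of 8 of endothelium and 2 of 8 of oligodendrocytes. Lower were 5 of 10 of inhibitory interneurons and 3 of 8 of choroid plexus, and of 8 astrocyte genes 1 was higher and 2 lower. In the same order, females alone had 4 of 4, 5 of 8, 4 of 8 and 0 of 8 higher, and 2 of 10 and 0 of 8 lower. Of 8 astrocyte genes 0 were higher and 1 lower in females, where 3.92% of all genes tested were called higher and 4.5% lower. Males alone had 0 of 2, 4 of 8, 0 of 8 and 0 of 8 higher, and 1 of 10 and 1 of 6 lower. Of 8 astrocyte genes 0 were higher and 2 lower in males, and of 8 glutamatergic neuron genes 1, Slc17a7, was higher. Of all genes tested in males 4.2% were called higher and 4.2% lower. In females the erythrocyte sum was 0.682 to 8.32 RPM on ND and 3.18 to 69.2 on HFD, that of microglia 458 to 600 and 475 to 701, and that of interneurons 1079.1 to 1804 and 864 to 1407. In males they were, in the same order, 3.37 to 15.9 and 3.23 to 30.1 RPM, 388 to 445 and 409 to 581, and 1441 to 2188 and 905 to 1481. Of these 3 lists the erythrocyte genes Hbb-b1, Hbb-bs and Alas2 were at 0 in at least 1 library, and none of the 3 was used as a covariate, so that their part in the results on Irs1 and Irs2 was not tested in that way. A choroid plexus list summed to over 100 RPM in 3 mice, F1102, F1063 and F1080, with its defining genes Folr1, Slc4a5 and Kcne2 each at 0 in at least 1 library. Genes of the olfactory bulb, a region next to the cortex, differed with sex, and with diet in both sexes together and in females. The sum of Doc2g, Eomes, Scgn, Sp8 and Th was 10.2 to 51.2 RPM in females on ND and 6.47 to 10.4 on HFD, and 77.5 to 178 in males on ND and 7.86 to 132 on HFD, with Eomes at 0 in HFD male F1065. These 5 genes were picked after their values were seen, from a list of 10 striatum and olfactory bulb genes of which 9 were measured. In both sexes together 0 of the 9 were higher and 5, the same 5, were lower on HFD. Females alone had 0 of 9 higher and the same 5 lower, and males alone had 0 of 9 called in either direction. The sum of the 5 genes is given below beside the genes it moves with. In bulk tissue, fewer cells of a type and less RNA per cell cannot be told apart.

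Irs2 had the largest diet difference of the 10 members in both sexes together and in females, while in males those of Igfbp2, Igf1 and Igf2 were larger. It was lower on HFD in both sexes together and in females, and its partner substrate Irs1 was lower as well, by a smaller amount. None of the other 8 members passed the test for diet in either sex or in both together.

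**Figure D1:**
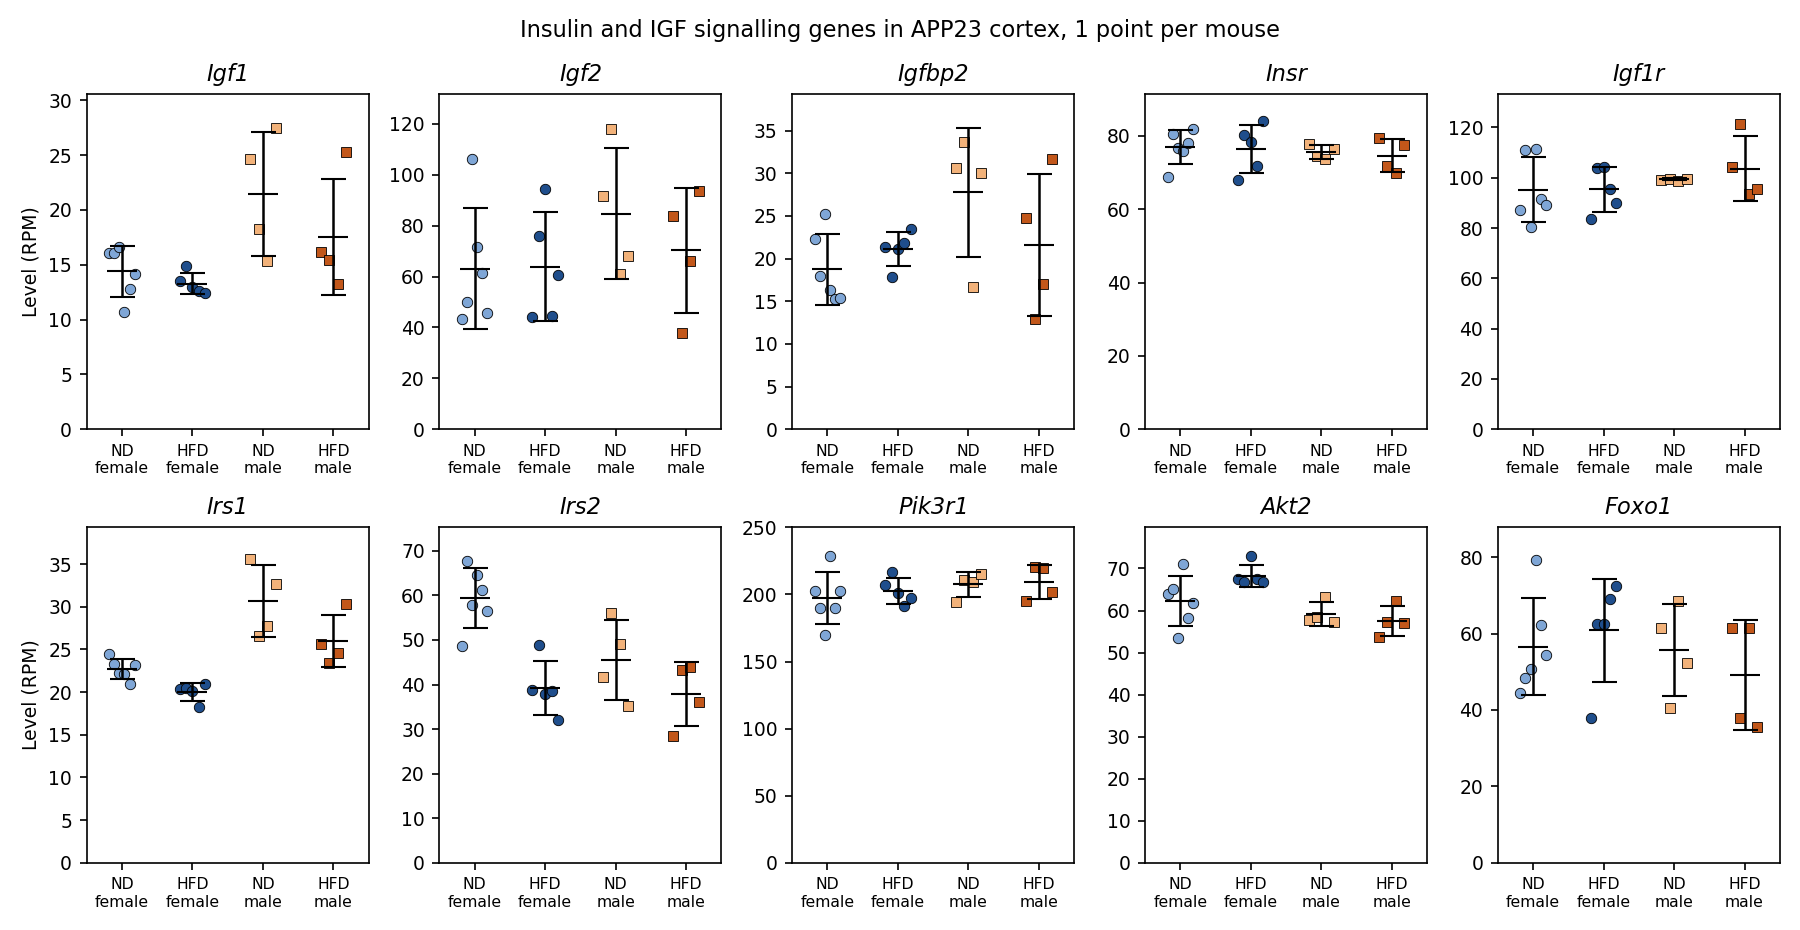
Level of each of the 10 genes (vertical axis, RPM, from 0) in every mouse, by diet and sex; points are mice, the bar is the mean and the whiskers are 1 SD. Irs2 stands at 48.7 to 67.8 RPM in ND females and at 32.1 to 48.8 RPM in HFD females, while Insr and Pik3r1 lie at like levels in all groups.

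Irs2 lies on chromosome 8 of mouse build GRCm38.p6 (chr8:10984681-11008929, minus strand). It encodes a substrate through which insulin acts on glucose and lipid metabolism in liver and on beta cell mass. In ND females it ran from 48.7 to 67.8 RPM with a median of 59.4. In HFD females it was at 38.8 in F1063, 48.8 in F1076, 37.9 in F1094, 38.6 in F1100 and 32.1 in F1252. The female groups overlapped by 1 mouse on each side, HFD female F1076 at 48.8 and ND female A1092 at 48.7 RPM, and every other HFD female was below every ND female. The means were 59.4 ± 6.71 RPM (SD, n = 6) on ND and 39.3 ± 6.02 RPM (SD, n = 5) on HFD. The log2 difference in females was -0.59 (SE 0.11, 95% interval -0.82 to -0.36), 0.664 of the ND level. By edgeR it was a call, rank 6 by p among the 14756 genes tested in females, with an adjusted p = 0.243.

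In males the Irs2 level overlapped between diets. ND males were at 41.7 in F1079, 56.0 in F1080, 49.2 in F1128 and 35.2 in F1131, and HFD males at 28.4 in A1095, 43.2 in F1065, 43.9 in F1129 and 36.1 RPM in F1145. The lowest male was on HFD, ND males F1080 and F1128 were above every HFD male, and the other values were interleaved. The log2 difference in males was -0.23 (SE 0.19, 95% interval -0.66 to 0.20, edgeR adjusted p = 0.728) and not a call. It ran from -0.34 to -0.11 when 1 male was left out, with -0.11 both without F1080 and without A1095, and it was -0.045 with the mean of immediate early genes as a covariate. A difference as large as that in females lies inside this interval. The test of the difference between the sexes did not pass (interaction -0.36, SE 0.21, 95% interval -0.81 to 0.09, edgeR adjusted p = 0.903), so a weaker response of males is not shown. The interaction was a call when F1076, F1080 or A1095 was left out, at -0.45, -0.48 and -0.48.

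With both sexes in 1 model and a term for sex, Irs2 fell by 0.45 on the log2 scale (SE 0.11, edgeR adjusted p = 0.139), to 0.732 of the ND level. The call held without any 1 mouse, with log2 differences from -0.50 to -0.39 in both sexes and from -0.68 to -0.52 in females. With the likelihood ratio test of edgeR the adjusted p was 0.0231 in both sexes and 0.000499 in females, and with DESeq2 it was 0.0198 and 0.000419, so that the adjusted call rests on the choice of test. The 5 olfactory bulb genes were lower in HFD females as well. With their mean as a covariate, added after the data were seen, Irs2 was at -0.61 in both sexes, -0.59 in females and -0.49 in males, and all 3 were then calls, with an adjusted p of 0.496 in both sexes, 0.989 in females and 0.996 in males. The r of Irs2 with that mean was -0.10 over all libraries, 0.674 within females, -0.35 within males and -0.48 for deviations from the group means, given without a test. Of the ND females F1102 alone, at 10.2 RPM, lay within the range of HFD females, so that diet and these genes are nearly separated by the same split in females. With the means of the microglia, erythrocyte and interneuron lists, the r of Irs2 was -0.225, -0.268 and 0.0526 over all libraries (permutation adjusted p = 0.643, 0.599 and 0.91). Within females these r were -0.699, -0.561 and 0.544, and within males -0.393, 0.442 and -0.14. For deviations from the group means they were -0.315, 0.333 and -0.415.

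Irs1, the other widely expressed substrate and the main one in muscle, lies on chromosome 1 (chr1:82233105-82291439, minus strand). ND females ran from 21.0 to 24.5 RPM with a median of 22.7. HFD females were at 20.4 in F1063, 20.5 in F1076, 20.1 in F1094, 18.3 in F1100 and 20.9 in F1252. The female groups did not overlap, but by a margin of 0.0118 RPM between F1104 on ND and F1252 on HFD, far inside counting error. Of all genes of the table, 0.413% had every HFD female below every ND female. The means were 22.7 ± 1.201 RPM (SD, n = 6) on ND and 20.04 ± 1.03 RPM (SD, n = 5) on HFD, and the log2 difference was -0.17 (SE 0.06, edgeR adjusted p = 0.467), a call.

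ND males had 35.6 RPM of Irs1 in F1079, 26.6 in F1080, 27.8 in F1128 and 32.7 in F1131, and HFD males 25.6 in A1095, 23.4 in F1065, 24.6 in F1129 and 30.3 in F1145. The male groups overlapped through F1145 alone. The log2 difference in males was -0.20 (SE 0.10, edgeR adjusted p = 0.599), close to that in females but not a call, and in both sexes Irs1 fell by 0.19 on the log2 scale (SE 0.05, edgeR adjusted p = 0.160). F1079, F1131 and F1145, the 3 males highest in Irs1, were also the 3 mice highest in the olfactory bulb genes, at 178, 169 and 132 RPM. With the mean of these genes as a covariate the difference in both sexes was -0.11 (edgeR adjusted p = 0.781) and no longer a call, and in females it was -0.22 (adjusted p = 0.999), still a call. With no term for sex the Irs1 difference was -0.17 and not a call (adjusted p = 0.595). The male difference was a call without F1080, without F1128 or without F1145.

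**Figure D2:**
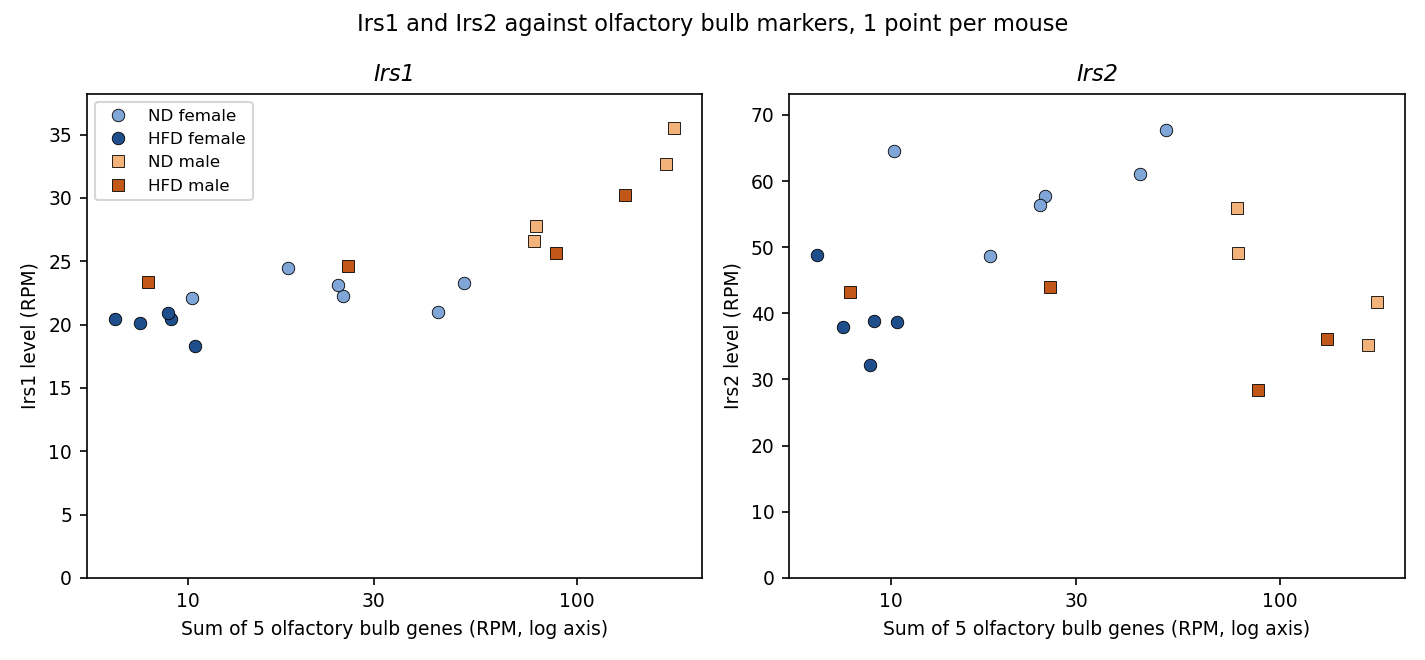
Irs1 and Irs2 levels (vertical axes, RPM) against the summed level of 5 olfactory bulb genes (horizontal log axis, RPM), 1 point per mouse, coloured by diet and sex. The 3 males at 132 RPM of olfactory bulb genes or above are the 3 highest in Irs1, at 30.3 to 35.6 RPM, and F1102, at 10.2 RPM, is the 1 ND female within the HFD female range of 6.47 to 10.4 RPM.

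The sequence 250 bases before the start of both substrate genes is shown because these are the members that fell on HFD. The windows are RefSeq's on GRCm38.p6, minus strand, 5′ to 3′, with capitals marking an E-box (CACGTG, the same on both strands), a motif bound by basic helix-loop-helix factors such as the clock factors and SREBP1.
Irs2 (chr8:11008930-11009179): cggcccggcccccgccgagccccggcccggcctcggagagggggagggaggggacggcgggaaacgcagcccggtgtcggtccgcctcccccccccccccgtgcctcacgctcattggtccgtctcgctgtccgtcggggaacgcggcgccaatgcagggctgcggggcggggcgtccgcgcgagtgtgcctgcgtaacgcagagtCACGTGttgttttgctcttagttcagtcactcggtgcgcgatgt
Irs1 (chr1:82291440-82291689): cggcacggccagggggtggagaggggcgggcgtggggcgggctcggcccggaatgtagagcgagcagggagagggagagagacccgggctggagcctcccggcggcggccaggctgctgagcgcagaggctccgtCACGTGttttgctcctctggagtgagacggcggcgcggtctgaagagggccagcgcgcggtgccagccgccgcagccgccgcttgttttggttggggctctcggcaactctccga
Each holds 1 E-box, starting 44 bases before the start in Irs2 and 115 bases before it in Irs1. An E-box was in 6.02% of the 32851 windows of this length compared, and the only other member window with one was the first of Igfbp2. The windows compared leave out 1 chromosome, on which no member lies. A full cAMP response element (TGACGTCA, its own reverse complement), in 1.55% of windows, and a FoxO site (GTAAACA, both strands), in 3.17%, were in none of the 17 windows of the 9 members with one, Insr having no window in the table. The GC content was 72.8% in Irs2 and 72.4% in Irs1, where the median window had 52.4%. A match of letters is a description of these windows only.

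The 10 members were chosen with earlier results of these data known, so that the shares of all genes are no independent standard here. Among the 10 members, 0 were higher and 2 were lower on HFD in both sexes together, where 5.44% of all genes tested were called higher and 6.99% lower. In females 0 were higher and 2 lower, beside 3.92% and 4.5% of all genes. In males 0 were called in either direction, where 4.2% of all genes were called higher and 4.2% lower. No member passed for the interaction, where 2.38% were called higher and 2.83% lower. The median log2 difference of the members was -0.02 in both sexes, 0.02 in females and -0.18 in males, beside medians within 0.01 of 0 over all genes. No gene of the table passed an adjusted p of 0.05 for diet by the quasi-likelihood test, while DESeq2 passed 123 genes in both sexes, 51 in females and 5 in males.

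**Figure D3:**
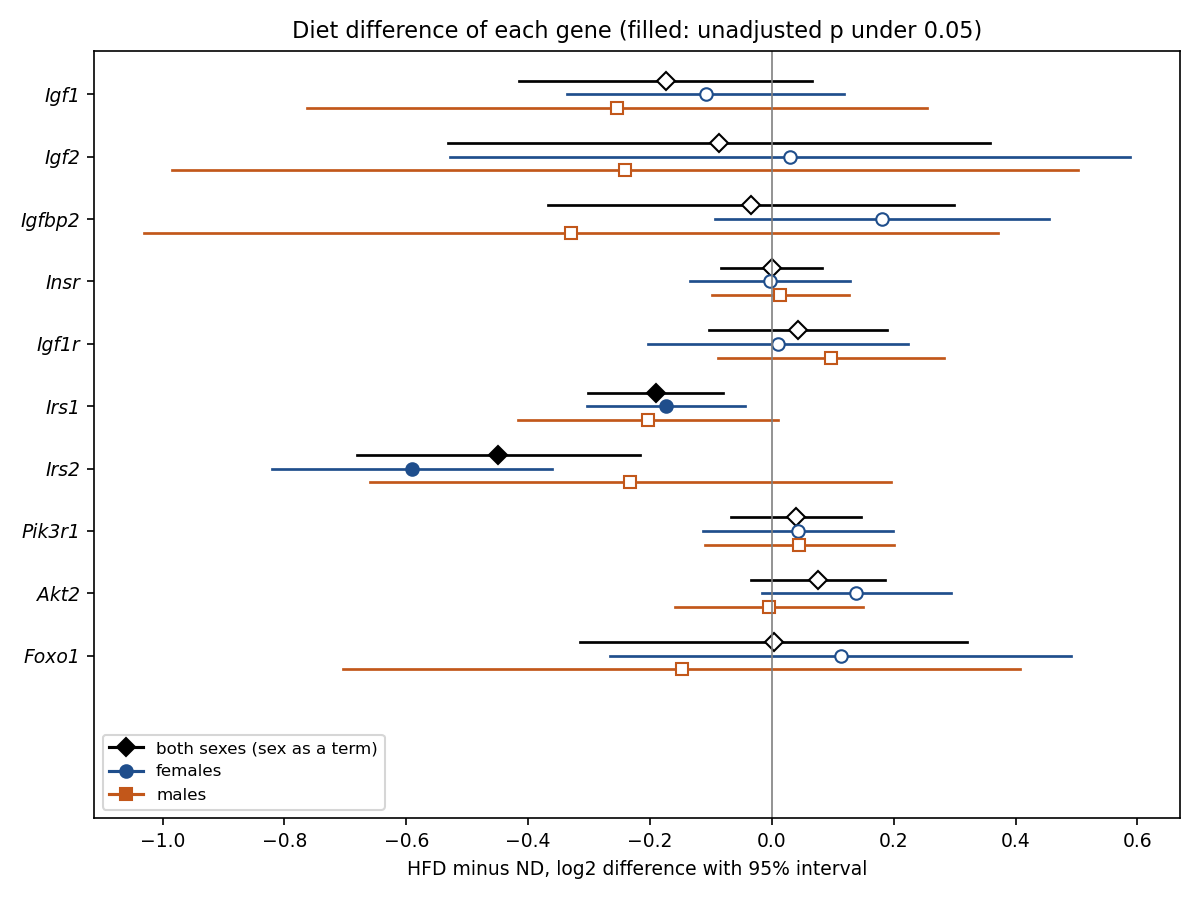
Log2 difference HFD minus ND (horizontal axis) of each gene, for females, for males and for both sexes together, with 95% intervals; filled marks have an unadjusted p under 0.05. Filled marks are those of Irs1 and Irs2 in both sexes and in females, and the widest intervals are those of Igf2, Igfbp2 and Foxo1.

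Of the ligands, Igf1, the growth factor made by liver and within the brain by neurons and microglia, was listed at the lowest level per length. ND females ran from 10.7 to 16.6 RPM with a median of 15.1, and HFD females were at 13.5, 14.8, 12.96, 12.6 and 12.5 RPM. ND males were at 24.7, 18.3, 15.3 and 27.5 RPM, and HFD males at 16.1, 15.4, 13.3 and 25.3. The diets overlapped in both sexes, with log2 differences of -0.11 in females (edgeR adjusted p = 0.832) and -0.25 in males (adjusted p = 0.759), neither a call. F1079, F1131 and F1145, the males rich in olfactory bulb genes, had the 3 highest Igf1 levels of all mice, 24.7, 27.5 and 25.3 RPM. Without HFD male F1145, Igf1 was called lower on HFD, with log2 differences of -0.24 in both sexes (edgeR adjusted p = 0.348) and -0.47 in males (adjusted p = 0.496).

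Igf2, the fetal growth factor that in the adult brain is made mainly by the meninges and choroid plexus, varied more than 3-fold between mice. ND females ran from 43.4 to 106 RPM with a median of 55.8, and HFD females were at 44.2, 75.9, 94.5, 44.3 and 60.8. ND males were at 91.6, 118, 61.2 and 67.9 RPM, and HFD males at 83.7, 37.9, 66.1 and 93.7. The groups overlapped throughout, and the log2 difference was 0.03 in females (95% interval -0.53 to 0.59) and -0.24 in males (95% interval -0.98 to 0.50).

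Igfbp2, the main IGF binding protein of cerebrospinal fluid, was at 15.3 to 25.2 RPM in ND females (median 17.1) and at 21.4, 17.9, 21.1, 21.9 and 23.4 RPM in HFD females. ND males were at 30.6, 33.6, 16.7 and 30.1 RPM, and HFD males at 24.8, 12.9, 16.99 and 31.6. It had a log2 difference of 0.18 in females (SE 0.13, edgeR adjusted p = 0.749) and of -0.33 in males (SE 0.30, adjusted p = 0.766), and the interaction of 0.51 (SE 0.31, adjusted p = 0.903) did not pass the test. Without ND female F1074 the female difference was a call, at 0.27 (edgeR adjusted p = 0.628), and the interaction was one without ND male F1128 (0.69) or HFD male F1145 (0.74).

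Igf2 and Igfbp2 moved with the markers of leptomeninges and fibroblasts, a list of 12 genes such as Dcn, Lum and Col1a1, all measured and none at 0 in any library. The list summed to 69.8 to 207 RPM in females on ND and 78.5 to 148 on HFD, and 110 to 202 in males on ND and 75.5 to 199 on HFD. Over the 19 libraries, Igf2 had a Pearson r of 0.898 with the mean log2 level of the list (permutation p = 1e-05, the smallest that 100000 permutations can give, adjusted p = 0.0011) and a Spearman rho of 0.879 (permutation p = 1e-05, adjusted p = 0.0011). Without F1080 and F1145, the 2 mice farthest from the median of the list, r was 0.868, and it was 0.831 within females, 0.974 within males and 0.895 for deviations from the group means. For Igfbp2 r was 0.749 (permutation p = 0.00033, adjusted p = 0.0182) and rho 0.760 (adjusted p = 0.0171), with r of 0.621 without the same 2 mice, 0.512 within females and 0.889 within males. The p-values were adjusted over 110 relations, each member with each of 11 lists of cell type and activity genes. By r and by rho, Igf1 with oligodendrocytes (r = -0.70, permutation adjusted p = 0.0326) and Irs1 with striatum and olfactory bulb (r = 0.680, permutation adjusted p = 0.0327) passed as well. By rho alone, Irs1 with microglia (rho = -0.65, permutation adjusted p = 0.0484), Akt2 with oligodendrocytes (rho = 0.730, permutation adjusted p = 0.0256) and Akt2 with striatum and olfactory bulb (rho = -0.66, permutation adjusted p = 0.0484) passed. For deviations from the group means the r of these 5 relations, in the same order, were -0.525, 0.209, 0.0888, 0.364 and -0.28. None of the 12 list genes passed the diet test in either direction in either sex. With the list as a covariate the Igf2 difference in females was -0.07.

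**Figure D4:**
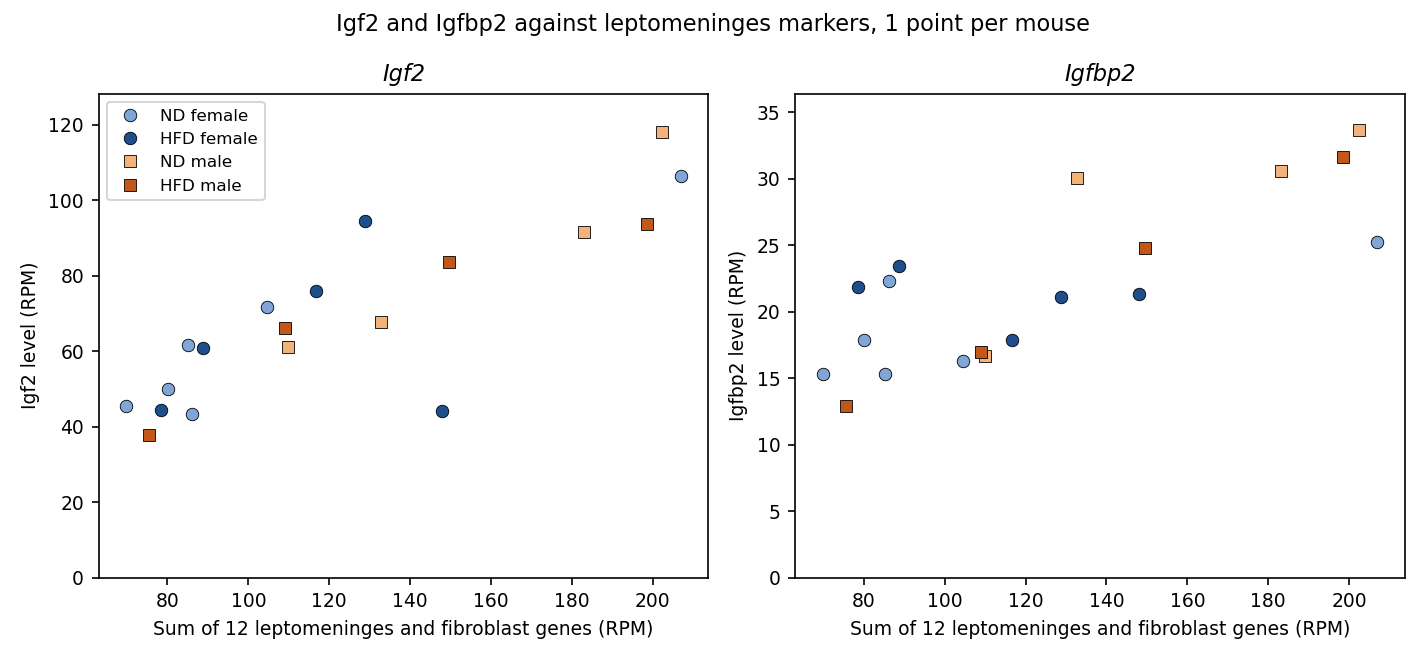
Igf2 and Igfbp2 levels (vertical axes, RPM) against the summed level of 12 leptomeninges and fibroblast genes (horizontal axis, RPM), 1 point per mouse, coloured by diet and sex. Mice with the highest sums, F1074, F1080 and F1145 at 199 to 207 RPM, have Igf2 at 93.7 to 118 RPM, and HFD female F1063 has 44.2 RPM of Igf2 with a list sum of 148 RPM.

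The receptors did not pass the diet test in either sex. Insr, the insulin receptor and the member with the smallest spread over all mice relative to its mean, lay between 68.0 and 84.0 RPM in all 19 mice, and its log2 difference in both sexes was -0.00 with a 95% interval of -0.08 to 0.08. Igf1r, the IGF1 receptor, lay between 80.5 and 122 RPM, with a difference of 0.04 and an interval of -0.10 to 0.19. In the 4 ND males Igf1r was at 98.9 to 99.7 RPM, a spread smaller than in any other group of any member. Its SD was 0.43% of the mean on 928 to 1015 reads, less than counting error alone gives, so it is not a trait of the group.

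Pik3r1, which encodes the p85 alpha regulatory subunit of PI3K, was the most abundant member, at 170 to 229 RPM, with a log2 difference of 0.04 in both sexes (95% interval -0.07 to 0.15). Akt2, the AKT isoform tied to insulin-stimulated glucose uptake, was at 53.4 to 71.1 RPM in ND females (median 62.8) and at 67.4, 66.8, 73.0, 67.5 and 66.8 in HFD females. Its difference in females was 0.14 (SE 0.07, edgeR adjusted p = 0.637), with F1102 on ND above 4 of the 5 HFD females, and it was -0.00 in males. Without F1102 the female difference was a call, at 0.19 (edgeR adjusted p = 0.440).

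Foxo1, the FoxO factor that insulin restrains in liver, was uneven within every group. ND females ran from 44.3 to 79.2 RPM with a median of 52.6, and HFD females were at 38.0 in F1063, 62.6 in F1076, 62.6 in F1094, 69.0 in F1100 and 72.4 in F1252. Males spread from 40.5 to 68.6 RPM on ND and from 35.7 to 61.5 on HFD. The difference was 0.11 in females (SE 0.17, edgeR adjusted p = 0.901) and -0.15 in males (SE 0.24, adjusted p = 0.876). F1063 on HFD and F1102 on ND, the lowest and the highest female, both exceeded 100 RPM in the choroid plexus list. Without the 3 mice over that level, an alternative added after the data were seen, Foxo1 was higher on HFD in females by 0.37 (edgeR adjusted p = 0.139). Its interaction was then a call at 0.64 (adjusted p = 0.305). Leaving out the lowest HFD female and the highest ND female raises the Foxo1 difference by itself, so that neither call is a test of diet or of choroid plexus content.

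Per length of merged exons (GENCODE vM21, GRCm38, where the counts were made on mm9), the mean level was highest for Pik3r1 at 26.9 RPM per kilobase. Igfbp2 at 14.97, Igf2 at 13.2 and Akt2 at 12.9 followed, and the spread of Igf2 over mice spans these 3. Igf1r at 8.58, Insr at 8.13, Irs2 at 7.38 and Foxo1 at 6.46 came next, and the spread of Irs2 and of Foxo1 covers their neighbours. Irs1 at 2.66 and Igf1 at 1.64 were the lowest. The exons of Irs2, Irs1, Igf2 and Foxo1 overlap a transcript on the opposite strand, and those of Igf2 also one on the same strand, none of them listed in the table, and no strand setting of the counting is stated, so that reads of such partners cannot be told apart.

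Between the sexes, with diet in the model, Irs1 and Igf1 were lower in females and Akt2 was higher. The members called higher numbered 1 and those called lower 2, where 14.1% of all genes tested were called higher in females and 12.5% lower. Irs1 fell by 0.40 on the log2 scale from males to females (SE 0.05, edgeR adjusted p = 0.000117), and on each diet every female was below every male. ND females lay below ND males without overlap for 2.68% of all genes, and HFD females below HFD males for 2.41%. Igf1 was lower by a log2 difference of -0.48 (SE 0.12, edgeR adjusted p = 0.0120). Both passed an adjusted p of 0.05, as did 6.29% of all genes higher and 4.98% lower. Akt2 was higher in females by 0.16 (SE 0.05, edgeR adjusted p = 0.0539), and every HFD female was above every HFD male, which held for 3.17% of all genes. Irs2 had a difference of 0.23 (SE 0.11, edgeR adjusted p = 0.202) and was not a call, although it was one with DESeq2 (0.22), with limma-voom (0.25) and without A1092, F1252, F1080, F1065 or F1129. Igfbp2 had a difference of -0.30, which was a call only without F1128, F1065 or F1129.

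Other marker lists held calls for sex as well, where 14.1% of all genes tested were called higher in females and 12.5% lower. Higher in females were 6 of 8 microglia and 6 of 8 oligodendrocyte genes, and lower were 5 of 12 leptomeninges and fibroblast genes. Some lists went both ways. Of 10 interneuron genes 2 were higher and 4 lower, and of 8 astrocyte genes 1 was higher and 3 lower. Of 9 striatum and olfactory bulb genes 4 were higher and 5 lower. Over the 19 libraries the r of Irs1 with the microglia list was -0.64, that of Igf1 with oligodendrocytes -0.70 and that of Akt2 with oligodendrocytes 0.636, and the part of the microglia and oligodendrocyte lists in the sex differences was not tested. Over the same mice the 5 olfactory bulb genes were higher in males. Their mean log2 level had an r of 0.823 with Irs1, 0.761 with Igf1 and -0.71 with Akt2 over the 19 libraries, given without a test because the genes were picked after their values were seen. Within females these r were 0.484, 0.470 and -0.66, and within males 0.787, 0.668 and -0.49. With the mean as a covariate, the sex difference was -0.29 for Irs1 (edgeR adjusted p = 0.168), -0.14 for Igf1 (adjusted p = 0.831) and 0.04 for Akt2 (adjusted p = 0.913), so that of these calls at the unadjusted threshold only that of Irs1 held. Pik3r1 (-0.22) and Igf1r (-0.23) were then calls lower in females.

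Members also varied together. Over the 19 libraries Irs1 and Igf1 had a Pearson r of 0.842 (permutation p = 4e-05, adjusted p = 0.0018 over 45 pairs of members) and a Spearman rho of 0.756 (adjusted p = 0.0108). Without F1079 and F1131, the 2 mice farthest from the Irs1 median, r was 0.724, and it was 0.461 within females and 0.856 within males. The olfactory bulb genes moved with both. Irs1 and Irs2, both lower on HFD, had an r of -0.19 over all libraries (permutation p = 0.439, adjusted p = 0.760), of 0.589 within females, of -0.23 within males and of -0.46 for deviations from the group means. Other pairs passed by r or by rho alone or by both: Igf1 with Akt2 (r = -0.64, permutation adjusted p = 0.0411), Igf1 with Igfbp2 (r = 0.653, permutation adjusted p = 0.0411), Igf1 with Foxo1 (rho = -0.695, permutation adjusted p = 0.0288) and Irs1 with Akt2 (rho = -0.65, permutation adjusted p = 0.0415). Within females the r of these pairs, in the same order, were -0.45, 0.260, -0.71 and -0.15, and within males -0.61, 0.732, -0.39 and -0.42. For deviations from the group means they were -0.47, 0.617, -0.58 and -0.0276. The permutations exchanged all 19 libraries across diet and sex, and Irs1, Igf1 and Akt2 differ by sex.

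The 5 genes whose log2 level was most like that of Irs2 over the 19 libraries, among 14933 compared, were Dusp4, a phosphatase of ERK kinases (r = 0.894), Per2, a clock gene (0.830), Pcdh1, a protocadherin (0.8287), Myh9, a non-muscle myosin (0.811), and Gbf1, a Golgi exchange factor (0.803). Dusp4 had medians of 15.3 RPM in females on ND and 10.3 on HFD, and 12.03 in males on ND and 8.26 on HFD, the same order of groups within each sex as Irs2. For deviations from the group means their r with Irs2 was 0.789, 0.761, 0.792, 0.657 and 0.836, and by that measure only Gbf1 was still among the first 5. These genes were selected for likeness and share libraries and depth with Irs2, so no p is given. The 20 immediate early genes and CREB targets, a list that includes Fos, Arc and Sik1, were also tested for diet. In both sexes together 0 were called higher and 7 lower on HFD, beside 5.44% and 6.99% of all genes, with a median of -0.32. In females alone 9 were lower (median -0.31) and in males alone 2, Fosb and Klf4 (median -0.30), beside 4.5% and 4.2% of all genes. Irs2 had an r of 0.580 with the mean of this list (permutation p = 0.00918, adjusted p = 0.0918) and a rho of 0.500. Without A1095 and F1252 r was 0.290, so that the size of the pooled r rests in part on those mice. It was 0.665 within females, 0.630 within males and 0.487 for deviations from the group means. With the list as a covariate, Irs2 was at -0.32 in both sexes (edgeR adjusted p = 0.200) and -0.49 in females (adjusted p = 0.519), both still calls, while the Irs1 difference in females was -0.14 and no longer a call (adjusted p = 0.668).

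**Figure D5:**
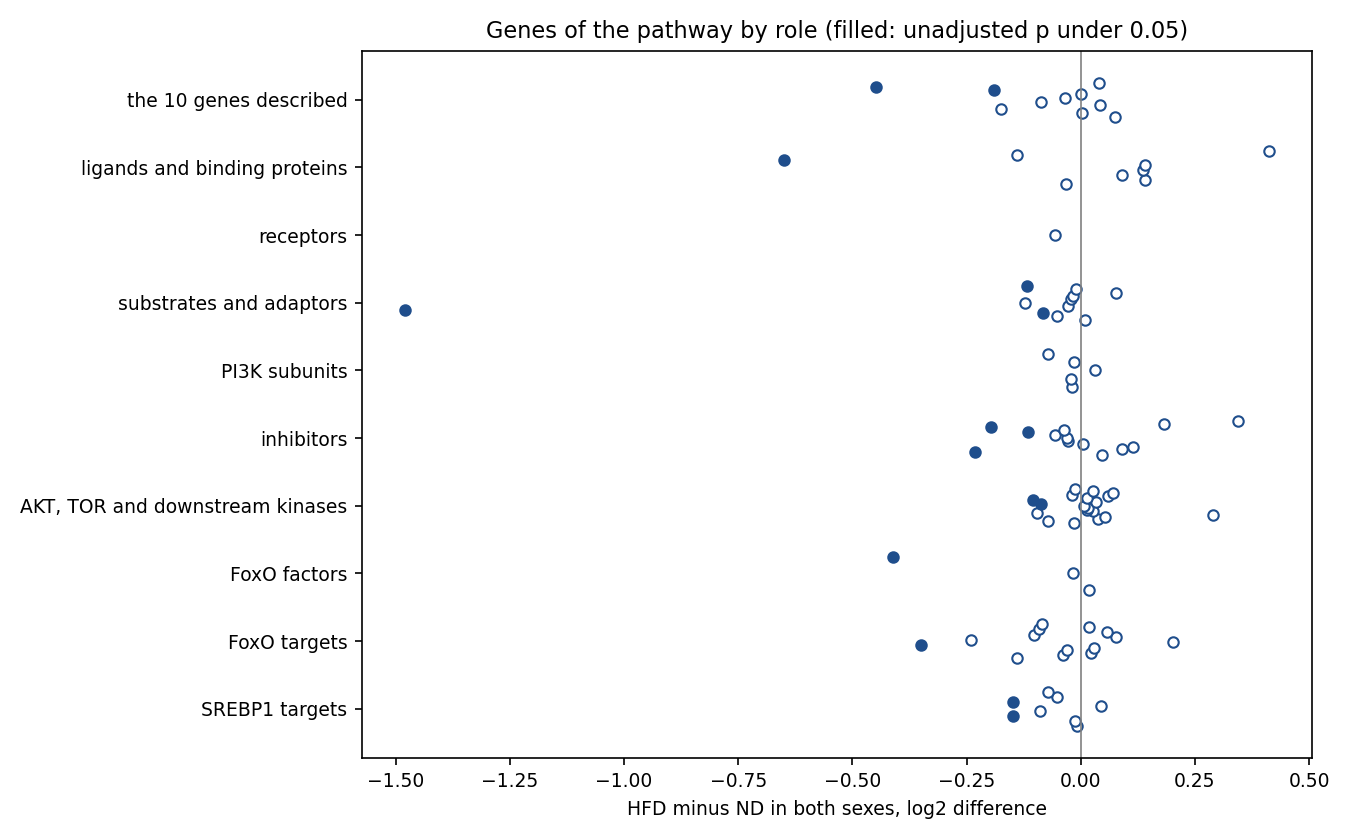
Log2 difference HFD minus ND in both sexes (horizontal axis) of every tested gene, by role in the pathway, 1 circle per gene; filled circles have an unadjusted p under 0.05. All filled circles lie left of 0, and the 2 farthest are Irs4 at -1.48 and Pappa at -0.65.

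The rest of the pathway was taken from lists by role, likewise chosen with earlier results of these data known. Of 67 further genes listed, 60 were tested in both sexes, 0 were higher and 10 were lower on HFD, beside the 5.44% and 6.99% of all genes, and their median difference was -0.01, where that of all genes was -0.0028. Ins1, Ins2, Igfbp1, Igfals, Irs3 and Socs1 were not among the genes analysed, and Insrr, the insulin receptor-related receptor, did not pass the filter on low counts. Among the ligands and binding proteins 1 of 8 was lower, Pappa, a protease of IGF binding proteins. Igf2r, the IGF2 clearance receptor and the 1 further receptor tested, had a difference of -0.06 (edgeR adjusted p = 0.744). Of 11 substrates and adaptors 3 were lower, the substrate Irs4 (-1.48, SE 0.47, edgeR adjusted p = 0.207) and the adaptors Grb2 and Sos1, which lead to Ras. None of the 5 further PI3K subunits was called.

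Of 13 inhibitors 3 were lower: Ptpn1 and Ptprf, phosphatases that act on the insulin receptor, and Grb10, an adaptor that binds and restrains it. Ptprf was at -0.20 (SE 0.06, edgeR adjusted p = 0.193), Grb10 at -0.23 (adjusted p = 0.300) and Ptpn1 at -0.12 (adjusted p = 0.285). Of 19 AKT, TOR and downstream genes 2 were lower, Mtor (-0.09, edgeR adjusted p = 0.392) and Rheb (-0.10, adjusted p = 0.380), the GTPase that activates it. By the rule for further names, the 3 with the smallest p in each direction, the lower ones were Foxo6, Cited2 and Elovl6, and the higher ones, none of which passed the test, were Rptor (0.07, edgeR adjusted p = 0.471), a scaffold of the TOR complex, Inppl1 (0.12, adjusted p = 0.482), a lipid phosphatase, and Rps6kb1 (0.06, adjusted p = 0.487), the S6 kinase.

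Foxo6, the FoxO factor of brain, fell by 0.41 on the log2 scale (SE 0.10, edgeR adjusted p = 0.135), a difference close to that of Irs2. ND females were at 7.85 to 13.7 RPM and HFD females at 7.53, 7.81, 7.06, 10.9 and 10.98, while ND males were at 11.9, 11.4, 10.2 and 9.45 and HFD males at 6.36, 7.86, 7.13 and 8.92. The males did not overlap, as held for 3.34% of all genes with every HFD male below every ND male, and the females did. Of 14 FoxO targets 1 was lower, Cited2 (-0.35, SE 0.09, edgeR adjusted p = 0.149), a transcriptional co-regulator, and 0 were higher. Of 8 SREBP1 targets, the lipid synthesis genes that insulin raises in liver, 2 were lower: Elovl6, a fatty acid elongase (-0.15, SE 0.04, edgeR adjusted p = 0.158), and Scd1, a desaturase (-0.15, adjusted p = 0.173). In females 1 of the 60 was higher, Igfbp7, and 6 were lower, and in males 2 of 59 were higher, Eif4ebp1 and Rptor, and 8 were lower, beside the shares of all genes given above.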

How the data were processed

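Per the submitters' notes and the study's methods, cortex mRNA libraries were sequenced on an Illumina HiSeq instrument, reads were counted per gene with Subread 1.4.0 and featureCounts on mouse build mm9, and the authors deposited for each library the read count of every gene beside its RPM, the count scaled to a common library total. Every listed gene exceeds 1 RPM in at least 2 libraries, and all 38 value columns were used. The mice in a group are separate animals, and the tissue label reads brain where the extraction notes read cortex.

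The 10 members and the lists were chosen with earlier results of these data known. Counts were tested with edgeR 4.0.16 (quasi-likelihood, robust, TMM, filterByExpr with minimum count 10 and total 15) in R 4.3.3, in females, in males, in both with a term for sex, and for the interaction of diet and sex. Standard errors are the log2 difference over the root of F. List means are log2 CPM with a prior count of 2. Alternatives were DESeq2 1.42.0, limma 3.58.1 (voom, and log2 of RPM plus a pseudocount of 1), the edgeR likelihood ratio test, other scaling and filters, list covariates and leaving out mice. The fits were tested on simulated data. Further genes named are the 3 with the smallest p in each direction over the pathway and target lists and the 5 most like Irs2, beside members of the lists as counted. Within groups, 37 pairs of libraries differed beyond counting noise, and 19 of 19 libraries matched their sex label. Permutation tests and figures used Python 3.11.15 with numpy 2.4.6 and matplotlib 3.10.9. Protein sequences of the members were not used here.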

Additional observations from a re-analysis of the deposited data

Results flagged for a closer look

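In 40 groups of 4 to 6 mice, each a member in 1 diet and sex group, 2 held a mouse whose gap to the nearest other exceeded Dixon's 95% limit, and chance flags about 1 in 20 groups. Akt2 was at 73.0 RPM in HFD female F1094, above the other HFD females at 66.8 to 67.5 RPM. Foxo1 was at 38.0 RPM in HFD female F1063, below the other HFD females at 62.6 to 72.4 RPM. F1063 was also among the 3 mice over 100 RPM in the choroid plexus list, with 280 RPM. Over the 19 libraries Foxo1 had an r of 0.0323 with the mean of that list (permutation p = 0.895, adjusted p = 0.938) and a rho of 0.0596 (permutation p = 0.811, adjusted p = 0.929).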

How the results depend on the processing

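Irs2 kept its direction and its call in both sexes and in females under every alternative run, and Irs1 kept its direction in both and in each sex. All other values here are log2 differences, HFD minus ND unless the sex difference is named, and each is a changed sign or a changed count of calls; the cause was not tested. No value that changed sign was a call before or after.

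In both sexes, Irs1 was no longer a call with no term for sex (-0.17) or with the olfactory bulb covariate (-0.11), which left 1 member lower. Insr was at 0.0039 with DESeq2, 2.8e-05 with the likelihood ratio test, 0.0035 with RLE scaling and 0.0047 with no filter. Foxo1 was at -0.0011 with limma-voom, -0.0013 with the likelihood ratio test, -0.027 with limma on RPM and -0.0095 with library totals. With the choroid plexus covariate Igf2 was at 0.043 and Igfbp2 at 0.0040, and with that of immediate early genes Foxo1 was at -0.26. In females limma on RPM called 1 member higher, Akt2. There the leptomeninges covariate put Insr at 0.0033 and Igf2 at -0.071, and that of immediate early genes left 1 member lower, with Irs1 at -0.14, Igf2 at -0.31 and Foxo1 at -0.13. In males the fit of all 4 groups called 1 member lower, Irs1. Insr in males was at -0.021 with limma on RPM, at -0.020 with library totals and at -0.0024 with the immediate early covariate, which put Akt2 at 0.043, while the choroid plexus covariate put Igf2 at 0.12.

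Without the mice whose identifiers begin with A, Foxo1 was at -0.073 in both sexes, Igf1r at -0.012 and Igf2 at -0.056 in females, Insr at -0.0098 and Akt2 at 0.035 in males, and the interaction called 1 member lower, Irs2 (-0.53). For the sex difference, DESeq2, limma-voom, the likelihood ratio test, limma on RPM and library totals each called 2 members higher, with Irs2 added.

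Both following alternatives were chosen after seeing the data. Without the 3 mice over 100 RPM in the choroid plexus list, Insr was at 0.026 and Igf2 at 0.093 in both sexes, and Insr at 0.038 in females. Called were 2 members higher in females (Akt2 at 0.19 and Foxo1 at 0.37), 1 lower in males (Irs1) and 1 higher for the interaction (Foxo1). The mice left out include the lowest HFD and the highest ND female in Foxo1, which raises its difference by itself. With the olfactory bulb covariate, values in both sexes were 0.033 for Insr, -0.068 for Igf1r, 0.068 for Igf1, 0.050 for Igf2, 0.24 for Igfbp2, -0.080 for Pik3r1, -0.011 for Akt2 and -0.079 for Foxo1. In females they were 0.015 for Insr, -0.083 for Igf1r, 0.074 for Igf1, -0.29 for Igf2, -0.16 for Pik3r1, -0.0011 for Akt2 and -0.19 for Foxo1. In males they were -0.030 for Igf1r, 0.042 for Igf2, 0.026 for Igfbp2 and -0.052 for Pik3r1, with 1 member lower, Irs2 (-0.49). The interaction then called 1 member higher, Igfbp2 (0.58), and the sex difference 0, with Igfbp2 at 0.13.

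Leaving out each mouse in turn gave, in both sexes, -0.013 to 0.026 for Insr, -0.19 to 0.023 for Igf2, -0.089 to 0.053 for Igfbp2 and -0.037 to 0.073 for Foxo1. In females it gave -0.034 to 0.037 for Insr, -0.041 to 0.066 for Igf1r, -0.16 to 0.23 for Igf2 and -0.0036 to 0.095 for Pik3r1, with 0 to 1 members higher. In males it gave -0.0098 to 0.039 for Insr, -0.00050 to 0.15 for Igf1r, -0.0026 to 0.084 for Pik3r1 and -0.051 to 0.036 for Akt2, with 0 to 2 members lower. For the interaction 0 to 1 members were higher and 0 to 1 lower, with Irs1 at -0.033 to 0.10, and for the sex difference 1 to 2 were higher.

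No paired analysis was possible because the labels give each mouse its own identifier and no pairing between groups, and the replicate numbers used here only follow accession order. Males had the shallower libraries, and 4 against 4 male mice gave wide intervals.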
